A study of Mus musculus with 42 samples.

Results

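Synovial fibroblasts labelled as TSG6-knockout were exposed to lipopolysaccharide (LPS), the outer-membrane glycolipid of Gram-negative bacteria, and their messenger RNA was set against that of untreated cultures of the same genotype. The members are the arrays titled as knockout with LPS (4 arrays) or knockout without treatment (8 arrays), which make 12 of the 42 arrays in the series. The series sets fibroblasts that lack Tnfaip6, which encodes TSG-6, against wild-type fibroblasts under inflammatory stimuli and under TSG-6 and hyaluronan. All cells came from the inflamed joints of BALB/c mice labelled female, in which arthritis had been raised by immunisation with cartilage proteoglycan and the adjuvant DDA. No age is stated. The cells had been grown for up to 6 passages and held overnight in 0.5% serum. The knockout-labelled groups were LPS at 200 ng/ml for 12 h (4 arrays), TNFa at 5 ng/ml for 12 h (4 arrays) and no treatment (8 arrays). Levels are also given for knockout-labelled cultures with TSG-6 at 120 ug/ml (3 arrays), hyaluronan at 24 ug/ml (4 arrays) or both (4 arrays) for 12 h. The wild-type groups were the same LPS treatment (2 arrays) and no treatment (5 arrays). No time is stated for the untreated cultures of either genotype, so a difference in time cannot be told apart from treatment. Titles number the cultures as biological replicates, but no label ties a culture to an animal, so p-values measure only the spread between these cultures.

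LPS is bound in serum by the LPS-binding protein Lbp and handed through Cd14 to a complex of Tlr4 and Ly96 (MD-2) on the cell surface. That complex signals through the adaptors Myd88 and Ticam1 (TRIF), which lead to NF-kB, MAP kinase and interferon-regulatory transcription factors. In the inflamed joint, fibroblasts of the lining answer such signals with chemokines, IL-6, colony-stimulating factors and matrix-degrading proteases. TSG-6 is a secreted protein that binds hyaluronan and modifies the hyaluronan matrix, and it is itself induced by inflammatory stimuli.

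The deposited values are log2 expression values centred on each probe set's median over all arrays, so a value of 0 is that median and no absolute level can be read. The presence of synovial fibroblast markers therefore could not be checked from levels. Some arrays stand apart. A probe set for 18S ribosomal RNA exceeded 1 on 15 of the 42 arrays, among them LPS replicates 2 and 4 and untreated replicates 7 and 8 of the knockout-labelled cultures. The knockout-labelled arrays also fall into 2 culture sets that no label names and that were found from the data. LPS replicates 1 and 2 and untreated replicates 1 to 4 lie in set a, and LPS replicates 3 and 4 and untreated replicates 5 to 8 in set b, so each set holds both groups.

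Tnfaip6, the gene named in the genotype, had centred log2 values of 0.46, 0.49, -0.09 and 0.17 on the 4 LPS arrays. On the 8 untreated knockout-labelled arrays it lay between -0.41 and 0.25 (median -0.1). The wild-type arrays lay at 0.26 and 0.23 with LPS and between -0.55 and -0.14 without. The knockout-labelled values were thus not lower than the wild-type ones. No source used here says whether this probe set reads the deleted part of the transcript, so it checks no label. In the knockout-labelled cultures the LPS difference of Tnfaip6 was 0.37 ± 0.17 (SE) and did not pass the test (adjusted p = 0.431, limma).

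With LPS, 326 of 18194 genes differed from untreated in the knockout-labelled cultures (limma, Benjamini-Hochberg adjusted p under 0.05, 1.79% of the genes tested). Of these, 177 were higher (0.973%) and 149 lower (0.819%). The chemokine Ccl5 was furthest up at 19.8-fold, followed by the nitric oxide synthase Nos2. The Egr transcription factors and the steroid enzyme Hsd11b2 were among the deepest falls. For Nos2, Hsd11b2, Egr1 and Ldb2, knockout-labelled cultures given TSG-6, hyaluronan or both also lay nearer the LPS than the untreated level. Ccl5 with TSG-6 lay nearer the untreated level. No test was run on these levels, which are listed under other observations. At least a 2-fold change was seen for 42 of the higher and 21 of the lower genes, and the median log2 fold change over all genes was -0.001. The 4 LPS arrays all lay on 1 side of the 8 untreated arrays for 223 of the changed genes, against 448 of all genes (2.46%). With the culture sets as a block 720 genes passed, 347 higher and 373 lower, among them all 326. The sets were found from these same values and are balanced over the LPS and untreated arrays. The block therefore leaves the differences unchanged and alters only their spread, so that keeping the 326 is no independent check. Leaving out each of the 12 arrays in turn kept 148 of the calls in every fit, 88 higher and 60 lower. The count fell to 200 without LPS replicate 1 and to 213 without LPS replicate 3. Without the high-18S arrays 134 genes passed, 102 higher and 32 lower. The part of 18S in the single results was not tested.

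**Figure D1:**
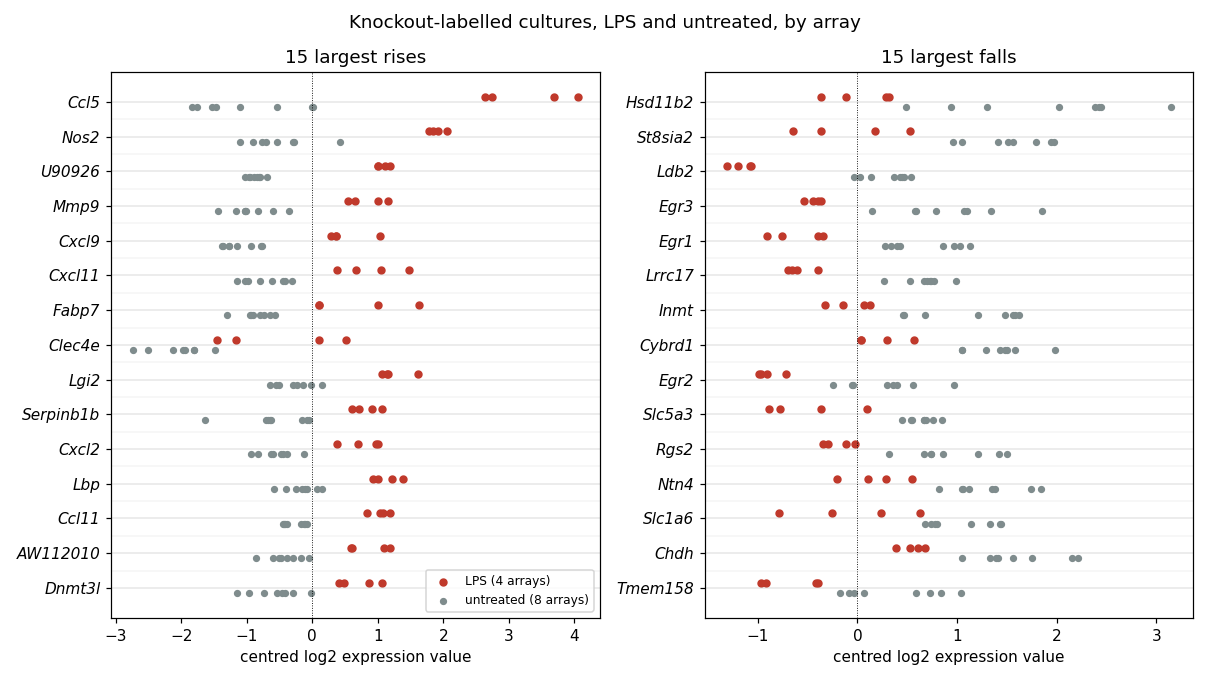
Centred log2 expression values (horizontal axes) of the 15 largest rises and the 15 largest falls under LPS in knockout-labelled cultures, 1 point per array. Red points are the 4 LPS arrays and grey points the 8 untreated arrays. In every row the 4 LPS points lie to 1 side of the 8 untreated points, as the choice of genes requires, with Ccl5 furthest apart at 4.31 log2 units between means.

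Ccl5 (RANTES), which attracts T cells and monocytes, showed the greatest rise. Its values were 2.63, 2.74, 3.69 and 4.05 on the LPS arrays, against -1.84, -1.29 and 0.01 as the lowest, median and highest of the untreated arrays. The difference was 4.31 ± 0.46 log2 units (adjusted p = 1.94e-07, limma), 4.34 within set a and 4.28 within set b. All 4 LPS arrays were thus well above all 8 untreated arrays, although the untreated arrays themselves spread over nearly 2 log2 units. Nos2, the inducible nitric oxide synthase, read 1.92, 2.05, 1.78 and 1.84 with LPS, against -1.1, -0.62 and 0.43 untreated. It was 5.35-fold higher (2.42 ± 0.22, adjusted p = 2.41e-08), with LPS arrays that differed from each other by less than the untreated ones did.

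The chemokines were the list with the most calls. Of the 26 chemokine genes measured, 13 rose, none fell, and the median log2 fold change was 0.42. Besides Ccl5, the rises spanned ligands for several receptors. The neutrophil-attracting CXCR2 ligands Cxcl2, Cxcl3 and Cxcl1 are shown here through their promoters. They were chosen because they lie close together on chromosome 5, all 3 rose and each promoter holds a match. Each line gives the 250 bases before the RefSeq gene start on the plus strand of GRCm38.p6, with matches to the NF-kB consensus in capitals.
Cxcl2 (chr5:90903649-90903898): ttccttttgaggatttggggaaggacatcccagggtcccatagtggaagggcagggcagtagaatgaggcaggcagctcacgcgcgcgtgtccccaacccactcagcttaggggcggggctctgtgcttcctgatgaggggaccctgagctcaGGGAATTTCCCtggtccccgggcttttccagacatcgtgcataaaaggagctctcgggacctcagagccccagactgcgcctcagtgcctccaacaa
Cxcl3 (chr5:90785851-90786100): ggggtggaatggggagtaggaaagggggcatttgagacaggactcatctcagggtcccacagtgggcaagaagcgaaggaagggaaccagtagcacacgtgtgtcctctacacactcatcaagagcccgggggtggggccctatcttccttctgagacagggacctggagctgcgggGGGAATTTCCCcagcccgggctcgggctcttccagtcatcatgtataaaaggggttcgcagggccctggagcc
Cxcl1 (chr5:90890995-90891244): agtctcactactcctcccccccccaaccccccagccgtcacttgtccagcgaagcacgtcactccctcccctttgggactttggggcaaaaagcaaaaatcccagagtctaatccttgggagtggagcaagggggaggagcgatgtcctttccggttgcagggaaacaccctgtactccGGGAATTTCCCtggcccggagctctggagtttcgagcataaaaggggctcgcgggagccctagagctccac
The consensus matches 2 overlapping positions in each of them, beginning at -97 and -96 in Cxcl2, -73 and -72 in Cxcl3, and -71 and -70 in Cxcl1, counted from the gene start, so the capitals form 1 block of 11 bases. Cxcl2 read 0.98, 0.7, 1 and 0.38 with LPS, against -0.94, -0.54 and -0.13 untreated, a rise of 1.32 ± 0.13 (2.49-fold, adjusted p = 8.85e-08). Cxcl3 read 0.3, 0.53, 0.27 and 0.44 against -0.76, -0.45 and -0.08 (0.8 ± 0.15, adjusted p = 0.00138). Cxcl1 rose least, by 0.41 ± 0.11 (adjusted p = 0.0414), and its call held in only 2 of the 12 fits that leave out an array (adjusted p up to 0.175). In all 3 genes every LPS array lay above every untreated array.

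The CXCR3 ligands, which attract activated T cells and are known as interferon-induced genes, divided. Cxcl9 read 0.36, 0.37, 1.04 and 0.28 with LPS, against -1.37, -1.21 and -0.76 untreated (1.62 ± 0.34, adjusted p = 0.00528). Cxcl11 read 0.38, 1.05, 1.48 and 0.67 against -1.14, -0.7 and -0.31 (1.61 ± 0.24, adjusted p = 6.65e-05), while the other probe set of Cxcl11 went the opposite way. Cxcl10 did not pass, with LPS arrays at 0.48, 0.35, -0.17 and -0.5 inside the untreated range of -1.03 to 2.06 (-0.2 ± 0.34, adjusted p = 0.939). Its promoter, also on chromosome 5, holds the NF-kB consensus too, with matches that begin at -159, -104 and -103. The eosinophil attractant Ccl11 rose 2.46-fold, with 4 LPS arrays between 0.84 and 1.18 that all lay above the untreated maximum of -0.08 (1.3 ± 0.3, adjusted p = 0.0103). Cxcl16, the membrane-bound ligand of CXCR6, rose 2.28-fold with the 4 arrays between 0.41 and 0.69, against an untreated maximum of -0.29 (1.19 ± 0.13, adjusted p = 2.91e-07). Ccl2, the main monocyte attractant, changed little in size but with a narrow spread, with LPS arrays between -0.02 and 0.19 above an untreated maximum of -0.16 (0.39 ± 0.07, adjusted p = 0.000557).

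A further 4 chemokines passed with overlapping arrays, and for each the call depended on single arrays. Ccl3, a chemokine that attracts monocytes, read 1.98, 0.01, 2.93 and 0.6 with LPS against -0.7, -0.2 and 0.18 untreated (1.66 ± 0.35, adjusted p = 0.0044). Its call ended without LPS replicate 3 (1.14, adjusted p = 0.0859), as did that of the CCR1 ligand Ccl9 (1.06 ± 0.21, and 0.8 without that array, adjusted p = 0.0643). The CCR4 ligand Ccl17 (0.67 ± 0.15) lost its call without LPS replicate 1 or 3, and platelet factor 4, Pf4 (0.43 ± 0.12), without any of 9 arrays. In all, 8 of the 13 chemokine calls held in every fit that left out an array, and 9 chemokines passed without the high-18S arrays. Among the members that did not pass, Ccl20 stood at 0.97 (adjusted p = 0.289), Ccl8 at 1.07 (adjusted p = 0.136) and Ccl7 at 0.28 (adjusted p = 0.17).

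**Figure D2:**
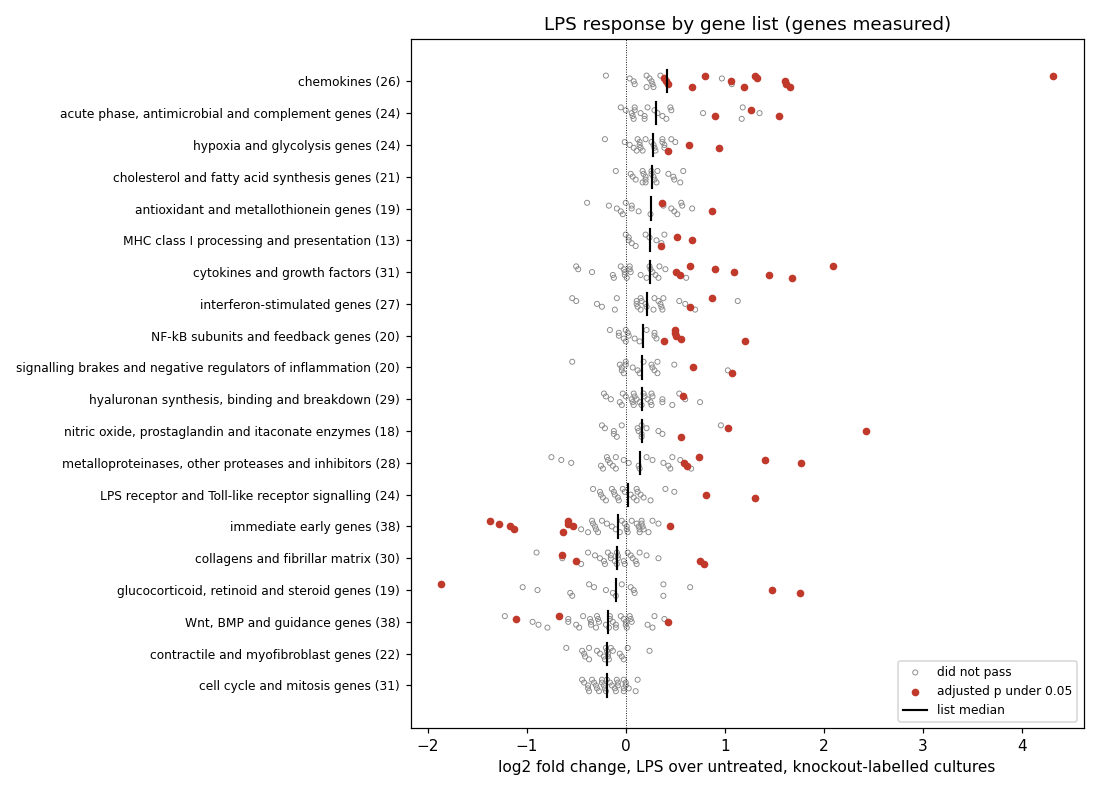
Log2 fold change of LPS over untreated knockout-labelled cultures (horizontal axis) for every measured gene of 20 gene lists (rows, with the number measured). Filled red points passed the test (adjusted p under 0.05), open points did not, and the black bar is the list's median. The chemokine list has 13 red points, all above 0, and the immediate early genes have 8 of 9 below 0.

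Of 31 cytokine and growth factor genes measured, 8 rose and none fell (25.8%, median 0.24). IL-6, the cytokine that drives acute phase and plasma cell responses, had the largest difference. Il6 read 1.49, 0.49, 1.49 and -0.35 with LPS, and -0.45, -0.64, -2.59, -1.83, -0.35, -0.21, -2.07 and -2.36 on untreated replicates 1 to 8. LPS replicate 4 lay inside the untreated range and the other LPS arrays above it, for a difference of 2.09 ± 0.37 (4.27-fold, adjusted p = 0.000643). In residuals over all genes, LPS replicate 4 correlated most with untreated replicates 7 and 8, which read -2.07 and -2.36 for Il6. These arrays were also the highest of their groups for the ribosomal RNA probe set, at 3.81, 4.31 and 3.87. The part of ribosomal RNA in this correlation was not tested, and no fit paired these arrays. The Il6 promoter is shown with its match to the NF-kB consensus, in capitals, which begins at -44. The promoters printed were chosen for holding a match.
Il6 (chr5:30012864-30013113): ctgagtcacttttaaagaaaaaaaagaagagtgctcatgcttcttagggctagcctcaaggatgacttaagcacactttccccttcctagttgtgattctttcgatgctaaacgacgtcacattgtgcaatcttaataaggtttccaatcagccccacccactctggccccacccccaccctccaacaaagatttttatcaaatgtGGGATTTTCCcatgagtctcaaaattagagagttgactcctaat
Csf2 (GM-CSF), a growth factor of macrophages and granulocytes, read 0.79, 0.12, 0.32 and -0.05 with LPS, against -1.05, -0.84 and -0.41 untreated (1.09 ± 0.19, adjusted p = 0.000508). Csf3 (G-CSF), which drives neutrophil production, read 0.66, -0.03, 0.01 and -1.01 against -2.22, -1.54 and -1.01, so that replicate 4 met the untreated maximum (1.45 ± 0.28, adjusted p = 0.00158). Tnf itself rose by 0.65 ± 0.12 (adjusted p = 0.00121), with LPS arrays between 0.1 and 0.72 above an untreated maximum of -0.02. These 4 genes kept their call in each of the 12 fits that leave out an array. Among the other alternatives, Il6, Csf2 and Tnf missed the threshold in 2 each and Csf3 in 1. For Tnf these included the fit without the high-18S arrays (0.51).

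The other 4 cytokine calls were less firm. Tslp, an epithelial-type alarm cytokine, rose by 0.9 ± 0.2 (adjusted p = 0.00695) but missed the threshold without LPS replicate 1 (adjusted p = 0.054). Vegfa (0.51 ± 0.12) lost its call without LPS replicate 1 or 2. Tnfsf11 (RANKL), the factor that matures osteoclasts, read 0.8, -0.23, 1.59 and 0.41 with LPS, against -2.31, -0.88 and -0.03 untreated. Its difference of 1.68 ± 0.43 (adjusted p = 0.032) passed in 6 of the 12 fits. Il1b likewise passed in 6 of 12 (0.55 ± 0.15, adjusted p = 0.0455), with replicates 1 and 3 at 0.86 and 0.84 and replicates 2 and 4, the arrays with high 18S, at -0.07 and 0.02. The interferon gene Ifnb1 stood at 0.01 (adjusted p = 0.999), Il10 at -0.02 (adjusted p = 0.987) and Lif at 0.27 (adjusted p = 0.687).

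The receptor for LPS changed at its accessory proteins. Lbp, which carries LPS, read 1, 0.93, 1.39 and 1.21 with LPS, against -0.58, -0.13 and 0.15 untreated (1.3 ± 0.28, 2.46-fold, adjusted p = 0.0057). Cd14, the surface co-receptor, read -0.12, -0.04, 0.04 and 0.06 against -1.09, -0.77 and -0.7 (0.81 ± 0.15, 1.75-fold, adjusted p = 0.0015). Both groups were separate for both genes, and both calls held in every fit that left out an array. Tlr4 did not pass, with LPS arrays at 0.08, 0.27, -0.04 and -1.13 and untreated arrays between -1.01 and 0.41 (-0.11 ± 0.3, adjusted p = 0.971). Its partner Ly96 read 0.5, 0.47, 0.02 and -0.58 with LPS (0.15 ± 0.18, adjusted p = 0.904). The adaptors Myd88 (0.11 ± 0.07, adjusted p = 0.632) and Ticam1 (-0.14 ± 0.13, adjusted p = 0.839) did not pass. Of the 24 genes of LPS reception and Toll-like receptor signalling, these 2 rose and none fell (median 0.02).

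Of 20 NF-kB subunits and feedback genes, 6 rose and none fell (median 0.17). Sod2, the mitochondrial superoxide dismutase and a known NF-kB target, rose most, at 0.24, 0.34, 0.3 and 0.58 with LPS, against -1.27, -0.82 and -0.56 untreated (1.2 ± 0.13, 2.3-fold, adjusted p = 2.97e-07). Its promoter is shown with the consensus match, beginning at -83, in capitals.
Sod2 (chr17:13007589-13007838): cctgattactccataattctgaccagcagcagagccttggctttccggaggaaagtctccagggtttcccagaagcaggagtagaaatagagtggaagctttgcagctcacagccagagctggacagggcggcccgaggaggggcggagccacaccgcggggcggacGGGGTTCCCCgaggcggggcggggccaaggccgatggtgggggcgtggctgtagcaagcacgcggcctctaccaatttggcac
Nfkbiz, an inducible nuclear cofactor of NF-kB, rose by 0.56 ± 0.1 (adjusted p = 0.000643), and Bcl3, another nuclear cofactor, by 0.51 ± 0.11 (adjusted p = 0.00765). Birc3, an inhibitor of apoptosis, rose by 0.5 ± 0.1 (adjusted p = 0.00223), Ier3 by 0.5 ± 0.1 (adjusted p = 0.00273), and Zc3h12a, a nuclease that degrades cytokine transcripts, by 0.39 ± 0.1 (adjusted p = 0.0338). The inhibitors Nfkbia (0.14, adjusted p = 0.521) and Tnfaip3 (0.29, adjusted p = 0.418) and the adhesion genes Icam1 (0, adjusted p = 1) and Vcam1 (-0.07, adjusted p = 0.987) did not pass. Without the high-18S arrays, 1 of the 20 genes passed. Bcl3 also lost its call without LPS replicate 4, and Zc3h12a passed in 5 of the 12 fits.

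Over all promoter windows, which run from 250 bases before to 50 bases after the gene start, the NF-kB consensus was found on either strand in 17.6% of the 136 genes that rose and had a window, in 13.3% of the 105 that fell, and in 11.7% of all 14453 tested genes with a window. The CArG box, the element bound by serum response factor, was in 2.21% of those that rose, 4.76% of those that fell (5 genes) and 1.58% of all. An interferon response element was searched for too, and was in 7.35% of those that rose (10 genes), 2.86% of those that fell (3 genes) and 3.63% of all. The motifs are given by name because their consensus letters include ambiguous bases. Among the 15 largest rises with separate arrays, 2 of the 9 genes with a window held the NF-kB consensus, and among the 15 largest falls 3 of 10, Egr2 included. None of these genes held the interferon response element. No test was run on these shares, and a match is a description of letters.

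Of 27 interferon-stimulated genes measured, 2 rose and none fell (median 0.21), and 5 rose with the culture sets as a block. The 2 were the guanylate-binding GTPases Gbp2 (0.65 ± 0.15, adjusted p = 0.0127) and Gbp3 (0.87 ± 0.2, adjusted p = 0.0143), each losing its call without 2 of the LPS arrays. The classical members Ifit1 (0.29, adjusted p = 0.818), Mx1 (-0.24, adjusted p = 0.847) and Rsad2 (-0.5, adjusted p = 0.796) did not pass. In the list for MHC class I processing, which loads peptides for T cells, 3 of 13 rose and none fell, and all 13 fold changes were at or above 0 (median 0.24). The risen members were the immunoproteasome subunits Psmb8 (0.67 ± 0.17, adjusted p = 0.0311) and Psmb10 (0.52 ± 0.11, adjusted p = 0.00541) and the proteasome activator Psme1 (0.36 ± 0.1, adjusted p = 0.0397). All 3 overlapped between groups, and none held its call in every fit that left out an array. Without LPS replicate 3, the adjusted p was 0.247 for Psmb8, 0.0964 for Psmb10 and 0.146 for Psme1.

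Among 18 enzymes and receptors of nitric oxide, prostaglandin and itaconate metabolism, 3 rose and none fell. Beside Nos2 these were the arginine-degrading enzyme Arg2 and the prostaglandin synthase Ptges2. Arg2 read 0.73, 0.08, 0.53 and -0.34 with LPS, against -1.81, -0.79 and -0.15 untreated (1.03 ± 0.24, adjusted p = 0.0117), and its call ended without LPS replicate 1 or 3 (adjusted p = 0.119 and 0.0791). Ptges2 rose by 0.56 ± 0.09 (adjusted p = 9.15e-05) with separate groups. Ptgs2, the inducible cyclooxygenase, stood at 0.37 (adjusted p = 0.835), and the itaconate enzyme Acod1 at 0.96 (adjusted p = 0.0586).

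The gelatinase Mmp9 rose most among the matrix-degrading genes. It read 0.54, 1.01, 0.66 and 1.16 with LPS, against -1.43, -1.02 and -0.35 untreated (1.77 ± 0.19, 3.41-fold, adjusted p = 2.21e-07), and both of its probe sets passed. Serpinb1b, a serpin, rose 2.64-fold (1.4 ± 0.18, adjusted p = 4.65e-06). Timp1, an inhibitor of metalloproteinases, rose by 0.59 ± 0.07 (adjusted p = 1.48e-06). The aggrecanase Adamts4 (0.74 ± 0.16, adjusted p = 0.00436) lost its call without LPS replicate 4, and the collagenase Mmp8 (0.62 ± 0.16, adjusted p = 0.0343) passed in 7 of the 12 fits. These 5 of 28 proteases and inhibitors rose and none fell, against 8 and 1 with the culture sets as a block. Mmp3 (0.27, adjusted p = 0.948) and Mmp13 (0.38, adjusted p = 0.833) did not pass. In the hyaluronan list 1 of 29 genes rose, the synthase Has1 (0.58 ± 0.15, adjusted p = 0.0272), in 6 of the 12 fits, while Has2 stood at -0.03 (adjusted p = 0.99) and the hyaluronan receptor Cd44 at 0.47 (adjusted p = 0.369).

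Glucose-handling genes rose in part. Pfkfb3, which raises glycolytic flux, read 0.7, 0.62, 0.6 and 0.82 with LPS, against -0.62, -0.28 and 0.14 untreated (0.94 ± 0.15, adjusted p = 0.000238). Hexokinase 2, Hk2, rose by 0.64 ± 0.12 (adjusted p = 0.000899), and the glucose transporter Slc2a1 by 0.43 ± 0.12 (adjusted p = 0.0488) in 3 of the 12 fits. No other of the 24 hypoxia and glycolysis genes passed, although 22 had a fold change above 0 (median 0.27). The metal-binding metallothioneins Mt1 (0.87 ± 0.18, adjusted p = 0.00355) and Mt2 (0.37 ± 0.1, adjusted p = 0.0454, in 3 of the 12 fits) were the only 2 of 19 antioxidant genes to pass. Of 24 acute phase, antimicrobial and complement genes, Camp, Saa2 and Clec4e rose and none fell. Camp, the cathelicidin antimicrobial peptide, read 0.88, 0.93, 0.7 and 0.82 with LPS, against -0.25, -0.06 and 0.09 untreated (0.9 ± 0.09, adjusted p = 8.85e-08). Serum amyloid Saa2 was 2.39-fold higher (1.26 ± 0.27, adjusted p = 0.00559). Clec4e (Mincle), a receptor for mycobacterial glycolipid, read 0.11, -1.45, 0.51 and -1.16 with LPS, against -2.73, -1.95 and -1.48 untreated, with the high-18S replicates 2 and 4 the lower ones (1.55 ± 0.33, adjusted p = 0.00567). Its call ended without LPS replicate 1 or 3 (adjusted p = 0.062 and 0.0849). The cholesterol and fatty acid synthesis list had no call among 21 genes (median 0.26, limma) and 5 rises with the culture sets as a block. That block gave 6 rises in the hypoxia and glycolysis list, 5 in the antioxidant list and 7 in the acute phase list, with no falls.

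Rises outside the lists were found too. U90926 read 1.01, 1.18, 1 and 1.11 with LPS, against -1.03, -0.87 and -0.69 untreated (1.95 ± 0.31, 3.86-fold, adjusted p = 0.000198). Fabp7, a fatty acid-binding protein known from glia, read 1.01, 0.1, 1.63 and 0.11 against -1.3, -0.85 and -0.57 (1.56 ± 0.27, adjusted p = 0.000592), again with replicates 2 and 4 low. Lgi2 rose 2.88-fold (1.53 ± 0.31, adjusted p = 0.00311), AW112010 2.43-fold (1.28 ± 0.15, adjusted p = 4.71e-07) and Dnmt3l, a cofactor of the DNA methyltransferases that set new methylation, 2.42-fold (1.27 ± 0.16, adjusted p = 2.82e-06). Of the 15 largest rises among genes with separate arrays, a choice that favours steady genes, 14 held their call in every fit that left out an array, the exception being Clec4e. Rises of like size with overlapping arrays held in 12 of the 12 fits for Il6 and Csf3, 11 for Ccl3, 6 for Tnfsf11, 5 for Rarres2 and 3 for Crabp2.

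The falls were led by Hsd11b2, the enzyme that inactivates glucocorticoids. Hsd11b2 read -0.11, -0.37, 0.32 and 0.29 with LPS, against 0.49, 0.94, 2.02, 1.3, 3.15, 2.42, 2.44 and 2.38 on untreated replicates 1 to 8. With LPS it stood at 27.5% of the untreated level (-1.86 ± 0.29, adjusted p = 9.15e-05). Cultures given TSG-6, hyaluronan or both lay near the LPS level too, as listed under other observations. The untreated arrays spread widely and were higher in set b, so that the difference was -1.43 within set a and -2.29 within set b. Without the high-18S arrays the difference was -1.61 and did not pass (adjusted p = 0.156). In the same list of 19 glucocorticoid, retinoid and steroid genes, Crabp2, which carries retinoic acid, and Rarres2 (chemerin) rose. Crabp2 read 0.86, 0.69, 2.85 and 3.13 with LPS against -0.34, 0 and 0.74 untreated (1.76 ± 0.48, adjusted p = 0.046), 0.8 within set a and 2.72 within set b, and it passed in 3 of the 12 fits. Rarres2 (1.48 ± 0.39, adjusted p = 0.0385) passed in 5. With the culture sets as a block 3 genes of this list rose and 4 fell.

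Immediate early genes, which cells switch on within minutes of serum or growth factor signals, included 8 falls and 1 rise among 38 measured after 12 h of LPS (median -0.08). Egr1 read -0.76, -0.35, -0.91 and -0.4 with LPS, against 0.28, 0.65 and 1.13 untreated, at 41.1% of the untreated level (-1.28 ± 0.17, adjusted p = 9.48e-06). Egr2 read -0.99, -0.72, -0.97 and -0.91 against -0.25, 0.33 and 0.97 (-1.17 ± 0.16, adjusted p = 1.12e-05). Egr3 read -0.45, -0.4, -0.54 and -0.37 against 0.15, 0.93 and 1.85 (-1.37 ± 0.22, adjusted p = 0.000238), while its other probe set went the opposite way. These zinc finger transcription factors had LPS arrays close together and separate from all untreated arrays, and each kept its call in every fit that left out an array. The Egr2 promoter is shown for 1 of 5 listed gene starts, with a CArG box in capitals that begins at -72. Counted from other listed starts the same box begins at -73 or -133. Another listed start has a match of different letters at -72, and the first listed start has none.
Egr2 (chr10:67537619-67537868): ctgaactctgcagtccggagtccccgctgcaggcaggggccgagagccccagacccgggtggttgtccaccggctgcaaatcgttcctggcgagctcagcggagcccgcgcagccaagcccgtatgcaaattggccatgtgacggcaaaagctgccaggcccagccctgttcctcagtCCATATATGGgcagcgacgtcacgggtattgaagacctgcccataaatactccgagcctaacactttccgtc
Rgs2, which shortens G-protein signals, read -0.3, -0.11, -0.02 and -0.35 against 0.32, 0.8 and 1.5 (-1.13 ± 0.16, adjusted p = 1.52e-05). The matrix protein gene Ccn1 fell by 0.63 ± 0.13 (adjusted p = 0.00533) and Arc by 0.58 ± 0.11 (adjusted p = 0.00127). Fos (-0.53 ± 0.14, adjusted p = 0.0387) and the MAP kinase phosphatase Dusp4 (-0.58 ± 0.15, adjusted p = 0.0389) passed in 3 of the 12 fits each. Jun went the other way, at 0.29, 0.25, 0.59 and 0.59 with LPS against -0.14, 0.01 and 0.11 untreated (0.45 ± 0.09, adjusted p = 0.00172). Without the high-18S arrays, 5 members fell and none rose.

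**Figure D3:**
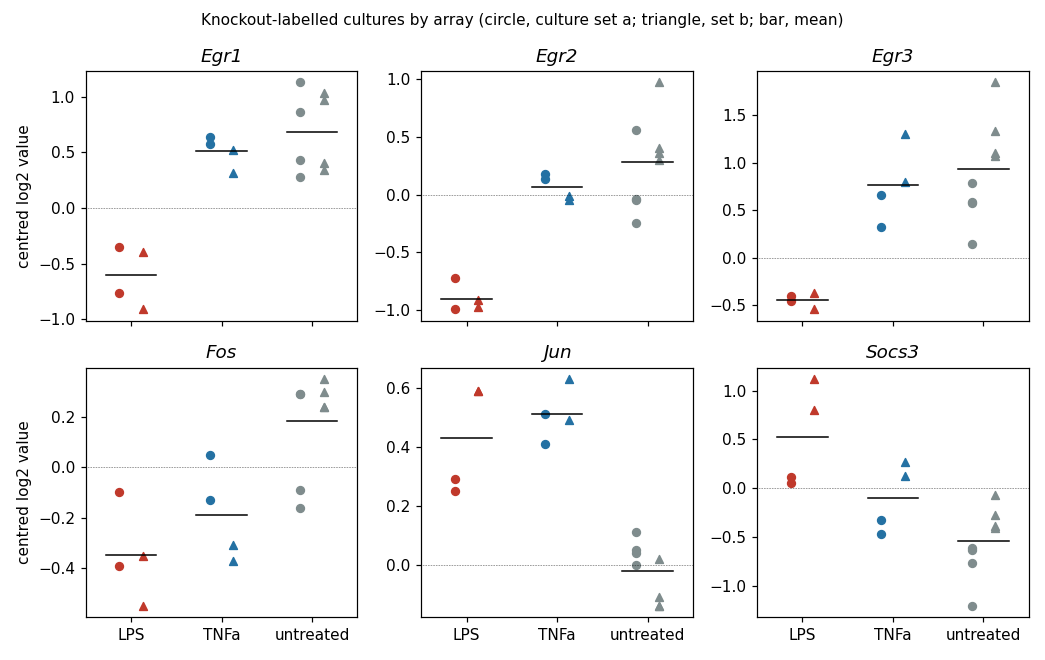
Centred log2 expression values (vertical axes) of Egr1, Egr2, Egr3, Fos, Jun and Socs3 on each knockout-labelled array with LPS (red, 4 arrays), TNFa (blue, 4 arrays) and no treatment (grey, 8 arrays). Circles are culture set a, triangles set b, and bars the group means. Egr1, Egr2 and Egr3 with LPS lie below all TNFa and all untreated arrays, and Socs3 is higher in set b than in set a within each group.

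Feedback on cytokine signals rose at 2 of 20 genes and fell at none, against 4 and 1 with the culture sets as a block. Socs3, which stops signalling from the IL-6 receptor, read 0.11, 0.05, 0.8 and 1.12 with LPS, against -1.21, -0.51 and -0.07 untreated (1.07 ± 0.2, 2.09-fold, adjusted p = 0.00147). Il18bp, the soluble trap for IL-18, rose by 0.68 ± 0.14 (adjusted p = 0.00406) and missed the threshold without LPS replicate 4 (adjusted p = 0.0657). Socs1 stood at 0.29 (adjusted p = 0.491).

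Matrix and developmental genes moved in both directions. Of 30 collagens and fibrillar matrix genes, 2 rose and 2 fell. Col18a1, the source of endostatin, read -0.21, -0.27, 0.07 and -0.02 with LPS, against -1.13, -0.85 and -0.7 untreated (0.75 ± 0.13, adjusted p = 0.000355). Col3a1 rose by 0.79 ± 0.2 (adjusted p = 0.0227) and Col6a3 fell by 0.5 ± 0.11 (adjusted p = 0.00842), and these calls ended without LPS replicate 3 (adjusted p = 0.127 and 0.0849) or 4, that of Col3a1 also without LPS replicate 1. Col8a2 (-0.64 ± 0.17, adjusted p = 0.0402) passed in 3 of the 12 fits. The major fibrillar chains Col1a1 (0.11, adjusted p = 0.956) and Col1a2 (0.07, adjusted p = 0.954) did not pass. Of 38 Wnt, BMP and guidance genes, the BMP antagonist Nog rose by 0.43 ± 0.09 (adjusted p = 0.00423), and the laminin-binding netrin Ntn4 (-1.11 ± 0.17, adjusted p = 0.000114) and the Dickkopf family member Dkk3 (-0.67 ± 0.14, adjusted p = 0.00455) fell. With the culture sets as a block, 9 genes of this list and 4 of the collagen list fell. The 22 contractile genes and the 31 cell cycle genes held no call (medians -0.19 and -0.19, limma), and 1 and 2 of them fell with that block.

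Other deep falls came from transporters, enzymes and a nuclear adaptor. St8sia2, which builds polysialic acid chains, read -0.65, -0.37, 0.18 and 0.53 with LPS, against 0.96, 1.54 and 1.97 untreated (-1.6 ± 0.21, adjusted p = 7.67e-06). Ldb2, a LIM-domain-binding adaptor, read -1.2, -1.08, -1.07 and -1.31 against -0.03, 0.4 and 0.54 (-1.46 ± 0.27, adjusted p = 0.00121), with the same direction in all 3 of its probe sets. The ferric reductase Cybrd1 fell to 44.1% of the untreated level (-1.18 ± 0.16, adjusted p = 8.77e-06), the myo-inositol carrier Slc5a3 to 45.7% (-1.13 ± 0.15, adjusted p = 5.06e-06) and choline dehydrogenase, Chdh, to 48.2% (-1.05 ± 0.16, adjusted p = 8.05e-05). The methyltransferase Inmt (-1.2 ± 0.18, adjusted p = 6.83e-05), Lrrc17 (-1.27 ± 0.27, adjusted p = 0.00533) and Tmem158 (-1.05 ± 0.19, adjusted p = 0.000656) also fell, although the other probe set of Lrrc17 went the opposite way. The glutamate transporter Slc1a6 (-1.09 ± 0.25, adjusted p = 0.0122) was the only 1 of the 15 largest falls with separate arrays to lose its call in a fit that left out an array, without LPS replicate 1 or 2 (adjusted p = 0.0763 and 0.125).

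Markers of the cells the cultures could hold gave few calls. Of 19 synovial fibroblast markers, Col3a1 and Has1 rose and Vim fell (-0.28 ± 0.07, adjusted p = 0.0296, in 4 of the 12 fits), while the lining lubricant gene Prg4 (0.05, adjusted p = 0.984) and the sublining marker Thy1 (-0.09, adjusted p = 0.937) did not pass. Of 19 macrophage markers Cd14 alone rose, and the list's mean centred value lay between -0.12 and 0.11 with LPS and between -0.24 and 0 untreated. Ptprc, the pan-leukocyte marker, stood at 0.11 (adjusted p = 0.866) and Adgre1 (F4/80) at 0.17 (adjusted p = 0.725). Camp was the 1 of 9 neutrophil markers to rise. None of the 9 lymphocyte, 13 dendritic and mast cell, 14 endothelial, 6 lymphatic or 11 smooth muscle and pericyte markers passed (limma), and 2 of the last list fell with the culture sets as a block. The mean centred value of the endothelial markers ranged from -1.03 to -0.1 with LPS and from -1.13 to 0.17 untreated, so it varied between arrays of the same group. The cartilage factor Sox9 (-0.59 ± 0.16, adjusted p = 0.0389, in 6 of the 12 fits) and the adipocyte gene Plin4 (-0.92 ± 0.18, adjusted p = 0.0016) fell. Because bulk cultures were measured, fewer cells of a type and less RNA per cell cannot be told apart, and the part of these markers in the gene results was not tested.

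The difference between knockout-labelled and wild-type LPS responses was tested directly, and 39 of 18194 genes passed (0.214%). The knockout-labelled response was above the wild-type one for 12 genes (0.066%) and below it for 27 (0.148%), against 8 and 35 after cyclic loess scaling. Growth factors and CXCR2 ligands had the largest shortfalls. Csf2 responded by 1.09 in knockout-labelled and 4.29 ± 0.26 in wild-type cultures, a difference of -3.19 ± 0.32 (adjusted p = 4.33e-08). Csf2 lay at 0.29 on average with LPS and -0.8 untreated in knockout-labelled cultures, and at 4.43 and 4.49 with LPS and 0.17 untreated in wild-type ones. Cxcl2 differed by -3 ± 0.23 (adjusted p = 1.14e-10), with a response of 1.32 in knockout-labelled and 4.31 ± 0.18 in wild-type cultures. For Cxcl2 the arrays with LPS overlapped between genotypes (0.38 to 1 in knockout-labelled and 0.71 and 1.15 in wild-type cultures), and it was the untreated arrays that stood apart (-0.94 to -0.13 in knockout-labelled and -3.45 to -3.27 in wild-type cultures). Untreated means lay in the same order for Cxcl3, at -0.42 in knockout-labelled and -2.87 in wild-type cultures (difference in response -2.62 ± 0.26, adjusted p = 3.4e-08). They did so for Cxcl16 too, at -0.61 in knockout-labelled and -2.68 in wild-type cultures (difference in response -1.18 ± 0.22, adjusted p = 0.00423). Csf3 (-2.75 ± 0.47, adjusted p = 0.00116) and Pf4 (-2.53 ± 0.2, adjusted p = 1.14e-10) also responded less in knockout-labelled cultures. Wild-type LPS arrays reached 4.18 and 4.25 for Csf3 and 4.77 and 5.38 for Pf4, against knockout-labelled LPS means of -0.09 and -0.02. For both genes this gap in LPS level was wider than the difference in response, because untreated means too were higher in wild-type cultures.

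The antimicrobial gene Lcn2 (-2.39 ± 0.54, adjusted p = 0.0415) and the genes Abca13 (-1.98 ± 0.31, adjusted p = 0.000338) and Fbp1 (-1.81 ± 0.31, adjusted p = 0.00113), a gluconeogenic enzyme, complete the 8 largest shortfalls. None of these 3 passed in the knockout-labelled response. The call of Lcn2 ended in 15 of the 19 fits that left out an array (adjusted p up to 0.522, without wild-type LPS replicate 1). On the other side, the 8 largest positive differences came from genes that did not pass in knockout-labelled cultures and fell in wild-type ones. Cldn5, a tight junction protein of endothelium, differed by 2.27 ± 0.31 (adjusted p = 3.23e-05), at -0.13 in knockout-labelled and -2.4 ± 0.25 in wild-type cultures. Fabp4 (2.04 ± 0.41, adjusted p = 0.013) lost its call without either wild-type LPS array (2.08 and 1.99, adjusted p = 0.136 and 0.194). Without wild-type LPS replicate 2 the count of differences was 23. Such a fit holds 1 wild-type LPS array, whose spread is taken from the remaining groups. Sstr2, Nmb, Sprr1a, Clec1a, Tm6sf1 and Exoc3l2 differed by 1.19 to 1.56, and of these Clec1a lost its call in 1 and Exoc3l2 in 5 of the 19 fits (adjusted p up to 0.101 and 0.385). Untreated wild-type arrays were higher than knockout-labelled ones for each of these 6, as for Cldn5 (-0.2 in knockout-labelled and 3.48 in wild-type cultures). The endothelial marker list had a median LPS response of -0.12 in knockout-labelled and -0.48 in wild-type cultures, and its part in these results was not tested.

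**Figure D4:**
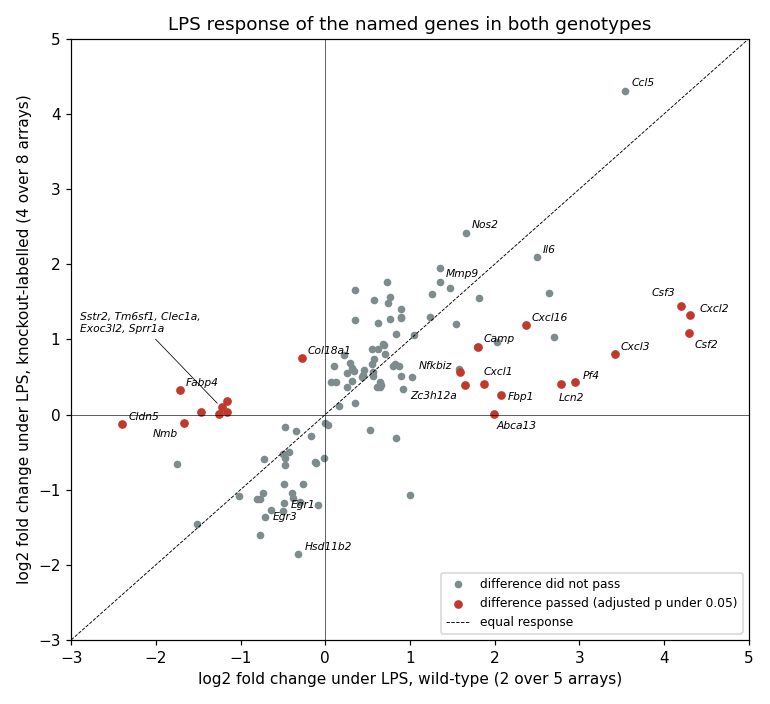
Log2 fold change under LPS of the 118 named genes in knockout-labelled cultures (vertical axis, 4 over 8 arrays) and in wild-type cultures (horizontal axis, 2 over 5 arrays), with the line of equal response dashed. Red points passed the test of the difference. Csf2, Cxcl2, Csf3, Cxcl3 and Pf4 lie far below the line, and Cldn5 and Fabp4 lie to its left.

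Most of the response had the same direction in both genotypes. Of the 326 genes changed in knockout-labelled cultures, 303 (92.9%) had the same sign of difference in wild-type ones, against 63.9% of all genes. Of the 217 genes changed in wild-type cultures (1.19% of those tested), 62 were higher in both genotypes and 14 lower in both, and 1 went opposite ways. The shared calls make 23.3% of the knockout-labelled calls and 35% of the wild-type ones. Ccl5 (4.31 in knockout-labelled, 3.54 in wild-type cultures), Nos2 (2.42 and 1.66) and Il6 (2.09 and 2.5) showed no difference that passed, each with an adjusted p of 1. The Egr genes fell in knockout-labelled cultures and did not pass in wild-type ones, where Egr1 stood at -0.5 and Egr3 at -0.71, but their difference between genotypes did not pass either (adjusted p = 1 for both). With 2 wild-type LPS arrays the test of the difference is less precise than that of the response. Genotype and the cultures it came from cannot be told apart.

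LPS and TNFa, the cytokine that drives much of joint inflammation, were compared directly in knockout-labelled cultures, a comparison that leaves out the untreated arrays. LPS was higher than TNFa for 191 genes and lower for 445 (1.05% and 2.45%, 636 genes or 3.5% in all). TNFa against untreated cultures changed 2552 genes (14%), with 1221 higher (6.71%) and 1331 lower (7.32%). The CXCR3 ligands had the largest deficits under LPS. Cxcl11 averaged 0.9 with LPS and 5.14 with TNFa (-4.24 ± 0.28, adjusted p = 4.95e-13), Cxcl10 0.04 and 3.84 (-3.8 ± 0.39, adjusted p = 1.02e-08), and Cxcl9 0.51 and 3.71 (-3.2 ± 0.4, adjusted p = 4.47e-07). Below them came the transcription factor Spib (-3.19 ± 0.22), the itaconate enzyme Acod1 (-2.96 ± 0.31), the hexose transporter Slc2a6 (-2.62 ± 0.24), Gm266 (-2.55 ± 0.24) and the fatty acid receptor Gpr84 (-2.46 ± 0.18).

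By list, LPS was lower than TNFa for 16 of 27 interferon-stimulated genes, 14 of 20 NF-kB genes, 10 of 13 MHC class I genes and 10 of 26 chemokines, and higher for none of them. Immediate early genes ran 2 higher and 14 lower. Among these Egr1 averaged -0.6 with LPS and 0.51 with TNFa (-1.12, adjusted p = 0.000268), Egr2 -0.9 and 0.06 (-0.96, adjusted p = 0.000725) and Egr3 -0.44 and 0.77 (-1.21, adjusted p = 0.0026). TNFa itself left these 3 genes without a call against untreated cultures (-0.17 for Egr1, -0.22 for Egr2 and -0.16 for Egr3). Genes higher with LPS than with TNFa were led by the natriuretic peptide receptor Npr3 (2.07 ± 0.28, adjusted p = 3.36e-06), Plagl1 (1.7 ± 0.42, adjusted p = 0.0112), Rgs4 (1.66 ± 0.26, adjusted p = 2.54e-05), Rbm33, Lrrn3, Wnt16, Rgs2 and Kitl. Of these 8, Rbm33 alone rose with LPS, at 1.23, 1.35, 1.26 and 0.98 against -0.29, 0 and 0.22 untreated (1.22 ± 0.16, adjusted p = 5.76e-06), with TNFa arrays between -0.76 and -0.14, although 1 of its 3 probe sets went the opposite way. Npr3 stood at -0.66 with LPS and -2.73 with TNFa relative to the shared untreated arrays. Kitl and Plagl1 lost their call in fits that left out an array. Kitl did so without TNFa replicate 1 or 3 (adjusted p up to 0.0604) or LPS replicate 2 (adjusted p = 0.0599). Plagl1 did so without TNFa replicate 1 (adjusted p = 0.0535) or LPS replicate 4 (adjusted p = 0.054). Without the high-18S arrays Plagl1 (1.64, adjusted p = 0.197), Wnt16 (1.26, adjusted p = 0.134) and Lrrn3 (1.49, adjusted p = 0.0705) missed the threshold. Rgs4 missed it in 1 other alternative (1.54, adjusted p = 0.0908).

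**Figure D5:**
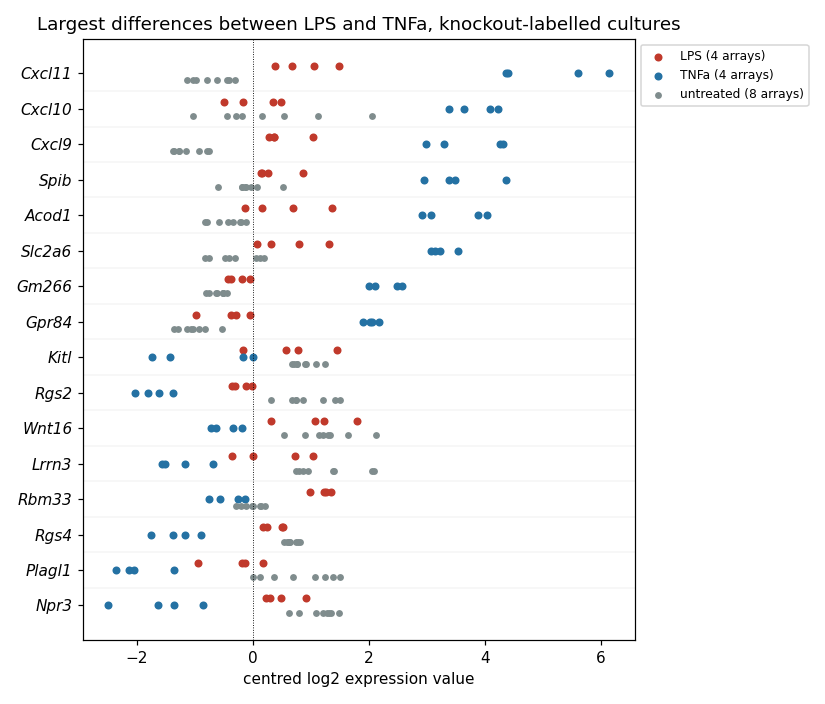
Centred log2 expression values (horizontal axis) on each knockout-labelled array for the 8 genes furthest below and the 8 furthest above TNFa under LPS. Red points are LPS (4 arrays), blue points TNFa (4 arrays) and grey points untreated cultures (8 arrays). Cxcl11, Cxcl10 and Cxcl9 with TNFa lie between 2.98 and 6.15, above all LPS and untreated points, and Rbm33 is the row where LPS points stand above both other groups.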

How the data were processed

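RNA of synovial fibroblast cultures was measured on 42 Affymetrix arrays of 45101 probe sets. The deposited log2 values were made by the authors with RMA, per the submitters' processing notes, which give no version. Each probe set was found centred on its median over the arrays, and base 2 is an inference: no probe set spans more than 9.81 units over the arrays. No value column lacked a sample. Array medians ran from -0.0239 to 0.0252. Precision is limited by how few arrays each group has.

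Probe sets with 1 gene (34958) were kept, 932 with several genes and 9211 with none were set aside, and 34754 were matched to current symbols by gene identifier. For each of 18194 genes the probe set with the largest SD was used, avoiding 387 probe sets that correlated above 0.7 with that of 18S RNA, except for 67 genes that had no other. A limma 3.58.1 fit (R 4.3.3) of 12 group means over all arrays gave differences, moderated tests and Benjamini-Hochberg adjusted p, called at 0.05. All p-values in the text come from it or its alternatives. Tables and figures used Python 3.11.15, pandas 2.3.3, numpy 2.4.6, scipy 1.17.1 and matplotlib 3.10.9. The fit was tested on simulated data with independent noise, which hold no culture sets or 18S effect and so cannot check those. For the LPS response 6.32% of the simulated calls were false and 95.5% of 2-fold changes were recovered. For the genotype difference 8.57% were false, and 28.4% of 1.5-fold and 70.1% of 2-fold changes were recovered.

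Named genes were the 15 largest changes each way with separate arrays, every called member of a list, 6 LPS reception genes, Tnfaip6 and the 8 largest differences each way from wild-type cultures and from TNFa. Members that missed the threshold are named as examples, chosen after their values were seen. Members and lists were chosen with earlier results of these data known. Alternatives were a replicate block, a culture set block, each set alone, other probe set, scaling and variance settings, arrays left out and the high-18S arrays left out. Replicate numbers as labelled were not taken to pair LPS with untreated cultures, since residuals of same-numbered arrays correlated at 0.416, -0.02, -0.254 and -0.262. Culture sets were defined by probe sets whose values leave a gap of 1 log2 unit or more, with 5 or more arrays either side. Promoters came from RefSeq (GRCm38.p6), matched by gene for 14453 genes.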

Additional observations from a re-analysis of the deposited data

Results flagged for a closer look

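Some single arrays lay far from the rest of their group, a check that chance alone trips in about 1 of 20 groups. With LPS, replicate 3 was the high array for Cxcl9 (1.04) and Lgi2 (1.62), and replicate 4 for Spib (0.86). Among untreated knockout-labelled arrays, the low ones were Serpinb1b in replicate 8 (-1.64), Nog in replicate 4 (-0.41), Tlr4 in replicate 7 (-1.01) and Nmb in replicate 6 (-0.49).

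The LPS response differed between knockout-labelled and wild-type cultures for 22 named genes (limma, adjusted p under 0.05), given here as log2 differences in response. Lower in the knockout-labelled response were Csf2 (-3.19), Cxcl2 (-3), Csf3 (-2.75), Cxcl3 (-2.62), Pf4 (-2.53), Lcn2 (-2.39), Abca13 (-1.98), Fbp1 (-1.81), Cxcl1 (-1.45), Zc3h12a (-1.26), Cxcl16 (-1.18), Nfkbiz (-1.03) and Camp (-0.9). Higher were Cldn5 (2.27), Fabp4 (2.04), Nmb (1.56), Sstr2 (1.51), Sprr1a (1.33), Clec1a (1.32), Tm6sf1 (1.26), Exoc3l2 (1.19) and Col18a1 (1.03).

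Probe sets without a single named gene were not part of the comparisons. Of 10143 such probe sets, 33 passed in the LPS response of knockout-labelled cultures when every probe set was fitted separately, a fit added after the data were seen. That is 0.325% of them, against 1.05% of all probe sets. The one with the largest rise read 2.05, 2.08, 1.63 and 1.36 with LPS against -0.4, -0.05 and 0.15 untreated (lowest, median and highest).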

How the results depend on the processing

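The LPS response of knockout-labelled cultures had 762 calls with a replicate block, 720 with a culture set block (which kept all 326), 134 without the high-18S arrays, 73 in culture set a alone and 128 in set b alone. Leaving out 1 array gave 200 to 328 calls. The genotype difference had 76 calls with a replicate block, 103 with a culture set block and 20 without the high-18S arrays, and 23 to 42 with 1 array left out. LPS against TNFa had 1137 calls with a replicate block, 1134 with a culture set block, 273 without the high-18S arrays, 279 in set a and 324 in set b, and 480 to 582 with 1 array left out. The other alternatives stayed within 1.5 times the main counts (only the groups compared, mean of probe sets, cyclic loess, robust variance, low-SD genes removed). The calls themselves changed more. Of the 326 main calls of the LPS response, 191 were kept with only the groups compared, 282 with the mean of probe sets and 304 with cyclic loess. The cause of these shifts was not tested. Fits that drop arrays also hold fewer of them, and the part of that was not tested either.

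No named gene reversed its sign where it had a call in the main fit or in the alternative. Sign changes of genes without a call in either were not counted. The LPS response was followed for 94 genes, among them Tlr4, Ly96, Myd88, Ticam1 and Tnfaip6, which had no call in the main fit. Status, called or not, stayed the same for 88 genes with the replicate block and 86 with cyclic loess. It did so for 94 with the culture set block, which leaves these differences unchanged and so is no independent check. It did so for 89 with the mean of probe sets, 72 with only the groups compared and 59 without the high-18S arrays. In set b alone it stayed for 51, with 43 calls ended, and in set a alone for 32, with 62 ended. The replicate block ended the calls of Cxcl3, Vegfa, Arg2, Fos, Mmp8 and Slc2a1. Without the high-18S arrays, which leaves 1 wild-type LPS array, 7 genotype differences missed the threshold, at -2.3 for Csf3, -2.32 for Lcn2, -1.6 for Fbp1, 1.03 for Exoc3l2, 1.37 for Sprr1a, 1.29 for Nmb and 1.72 for Cldn5.

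The replicate block, whose same-numbered arrays did not correlate throughout, also moved list counts of the LPS response. It gave 10 rises among interferon-stimulated genes (2 without it), 9 in the acute phase list (3), 8 rises and 2 falls among proteases (5 and none), 14 falls in the Wnt, BMP and guidance list (2), 8 among cell cycle genes (none) and 7 among contractile genes (none). Falls numbered 6 of 14 endothelial markers (none without it, median -0.38 with it) and 4 of 11 smooth muscle and pericyte markers (none).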

Other observations

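Knockout-labelled cultures given TSG-6 (3 arrays), hyaluronan (4 arrays) or both (4 arrays) for 12 h had levels near those of the LPS cultures for several of the same genes. No test was run on these values, since the genes were chosen for their distance from the shared untreated arrays. Nos2 averaged 1.9 ± 0.12 with LPS, 1.94 ± 0.23 with TSG-6, 1.74 ± 0.43 with hyaluronan and 2.04 ± 0.4 with both, against -0.52 ± 0.48 untreated (SD). Ldb2 averaged -1.16 ± 0.12 with LPS, -1.11 ± 0.13 with TSG-6, -0.85 ± 0.26 with hyaluronan and -1.19 ± 0.36 with both, against 0.3 ± 0.22 untreated. Hsd11b2 averaged 0.03 with LPS, 0.21 with TSG-6, 0.32 with hyaluronan and 0.15 with both, against 1.89 untreated. Egr1 averaged -0.6 with LPS, -0.17 with TSG-6, -0.37 with hyaluronan and -0.41 with both, against 0.68 untreated.

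Other LPS-induced genes stood nearer the untreated level in TSG-6-treated cultures. Ccl5 averaged 3.28 ± 0.7 with LPS, -0.03 ± 1.21 with TSG-6, 2.19 ± 0.98 with hyaluronan and 0.8 ± 1.46 with both, against -1.03 ± 0.76 untreated. AW112010 averaged 0.87 ± 0.32 with LPS, -0.17 ± 0.19 with TSG-6, 0.43 ± 0.13 with hyaluronan and -0.12 ± 0.15 with both, against -0.42 ± 0.25 untreated. Cxcl11 averaged 0.9 ± 0.48 with LPS, -0.37 ± 0.34 with TSG-6, 0.25 ± 0.32 with hyaluronan and -0.24 ± 0.28 with both, against -0.71 ± 0.32 untreated.

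Over all genes, the residual of LPS replicate 1 correlated most with those of untreated replicates 1 and 2 (0.416 and 0.409), that of replicate 2 with 4 and 3 (0.53 and 0.208), that of replicate 3 with 5 and 6 (0.575 and 0.545) and that of replicate 4 with 7 and 8 (0.408 and 0.331). No label states such a grouping, and no fit used it. LPS replicate 4 and untreated replicates 7 and 8 were also high in ribosomal RNA, whose part in these correlations was not tested. The p-values therefore take the 8 untreated arrays as separate cultures that are not paired with LPS arrays.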
